A study of Xenopus laevis with 8 samples.

Results

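The genes described here encode the building blocks of the ciliary axoneme and the trains that carry them into the cilium, measured by RNA-seq in gastrula explants of Xenopus laevis. A gene was taken where its symbol began with dnah, dnai, dnal, rsph, tekt, drc or with ift and a number, or was spag6, ccdc39 or ccdc40, on either subgenome (.L or .S). The counts cover 35649 genes, of which 54 had such a name, and the 51 with at least 10 counts over all samples were kept. They comprise 34 motile axoneme genes and 17 ift genes. Subunits of the IFT complexes with other symbols are not in the set and were read in a separate list of transport genes. The 3 left out were ift27.S and tekt3.S with 3 counts each and tekt2.S with 9.

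The study set a gain of function of the secreted factor Pinhead in ectoderm against a loss of function in the marginal zone, and each of its 4 groups has 2 samples. Control ectoderm explants (animal caps) were untreated, and Flag-Pinhead ectoderm explants came from embryos given 1.5 ng of RNA for a Flag-tagged Pinhead; both carry the label stage 11. Control marginal zone explants, from the equatorial belt that forms mesoderm, were untreated, and PhSpMo marginal zone explants came from embryos given 40 ng per blastomere of the antisense oligonucleotide PhSpMo at the 4-cell stage. The labels give stage 10.5 for both marginal zone groups, while the text of the series gives stage 11. As neither control was injected, the effect of the injection itself cannot be told apart from that of the RNA or the oligonucleotide. Whether both samples of a group stem from different clutches is not stated. The spread behind each p-value below is that between the sequenced samples alone and could be technical. It was estimated over all groups together. As the Flag-Pinhead pair differed more than the control pairs, p-values with Flag-Pinhead may be too small and those of the other comparisons too large.

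A motile cilium is built on an axoneme of doublet microtubules around a central pair. Outer and inner dynein arms, each with heavy chain motors and intermediate and light chains, slide the doublets; radial spokes, the nexin link and the central apparatus control that sliding, and tektins are filaments of the doublet wall. Intraflagellar transport (IFT) carries these parts along the axoneme in trains of the IFT-B complex, which moves with kinesin towards the tip, and the IFT-A complex, which is needed for the return by dynein. IFT serves immotile signalling cilia as well as motile ones. In the Xenopus embryo motile cilia appear after gastrulation, on multiciliated cells of the epidermis and in the gastrocoel roof plate, the left-right organizer, and the transcription factor Foxj1 switches on many motile cilium genes.

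Depth lay between 12551618 and 19719311 counts per sample. Levels below are normalized CPM, read counts scaled to a library size corrected by the trimmed mean of M-values (TMM), so a gene under 1 CPM rests on few counts. Of the 51 genes 50 entered the test, and tekt1.S, with 10 counts in all, did not. Summed per sample, the PhSpMo samples differed by less than other pairs did and no more than the columns of a sample in the other groups; they were counted as 1 sample, which leaves 7 units in the tests. The columns within each PhSpMo sample differed more than the samples did, so columns may be crossed between them, and a value given for a single PhSpMo sample, or an overlap read from it, may not be that of 1 library. The mesoderm markers parted the control tissues and the epidermis markers did so less: 41 early mesoderm genes summed to between 64.3 and 64.5 CPM in control ectoderm and between 3832 and 3992 CPM in control marginal zone. In Flag-Pinhead ectoderm this sum lay between 1237 and 1375 CPM, and the sum of 42 epidermis genes was between 6004 and 6589 CPM, against 8282 to 8433 CPM in control ectoderm and 5968 to 6184 CPM in control marginal zone, where 12 of 40 epidermis genes tested were higher than in ectoderm and 21 lower. Over all genes tested, 26.5% were higher in control marginal zone than in control ectoderm and 26.3% lower. Explants are mixed tissue, so fewer cells of a type and less RNA per cell cannot be told apart.

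Every one of the 17 ift genes had a mean of at least 1 CPM in some group, while 5 of the 34 motile axoneme genes (dnah14.L, dnai2.S, rsph10b.S, rsph14.L and tekt1.S) stayed under 1 CPM in every group mean. In control ectoderm the motile axoneme genes summed to 248 and 250.2 CPM and the ift genes to 261 and 248 CPM. The motile sum was carried by few genes: dnal4.L gave 23.7% of it and dnal4.S 14.7%. Both encode dynein light chain 4, and neither passed the test in any comparison. Normalized counts of dnal4.L were 58.9 and 59.3 CPM in control ectoderm, 54.1 and 54.6 CPM with Flag-Pinhead, 57.6 and 61.6 CPM in control marginal zone and 59.3 and 61.9 CPM with PhSpMo. CPM are not divided by transcript length, so levels of different genes are not compared here beyond their share of a sum of reads.

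**Figure D1:**
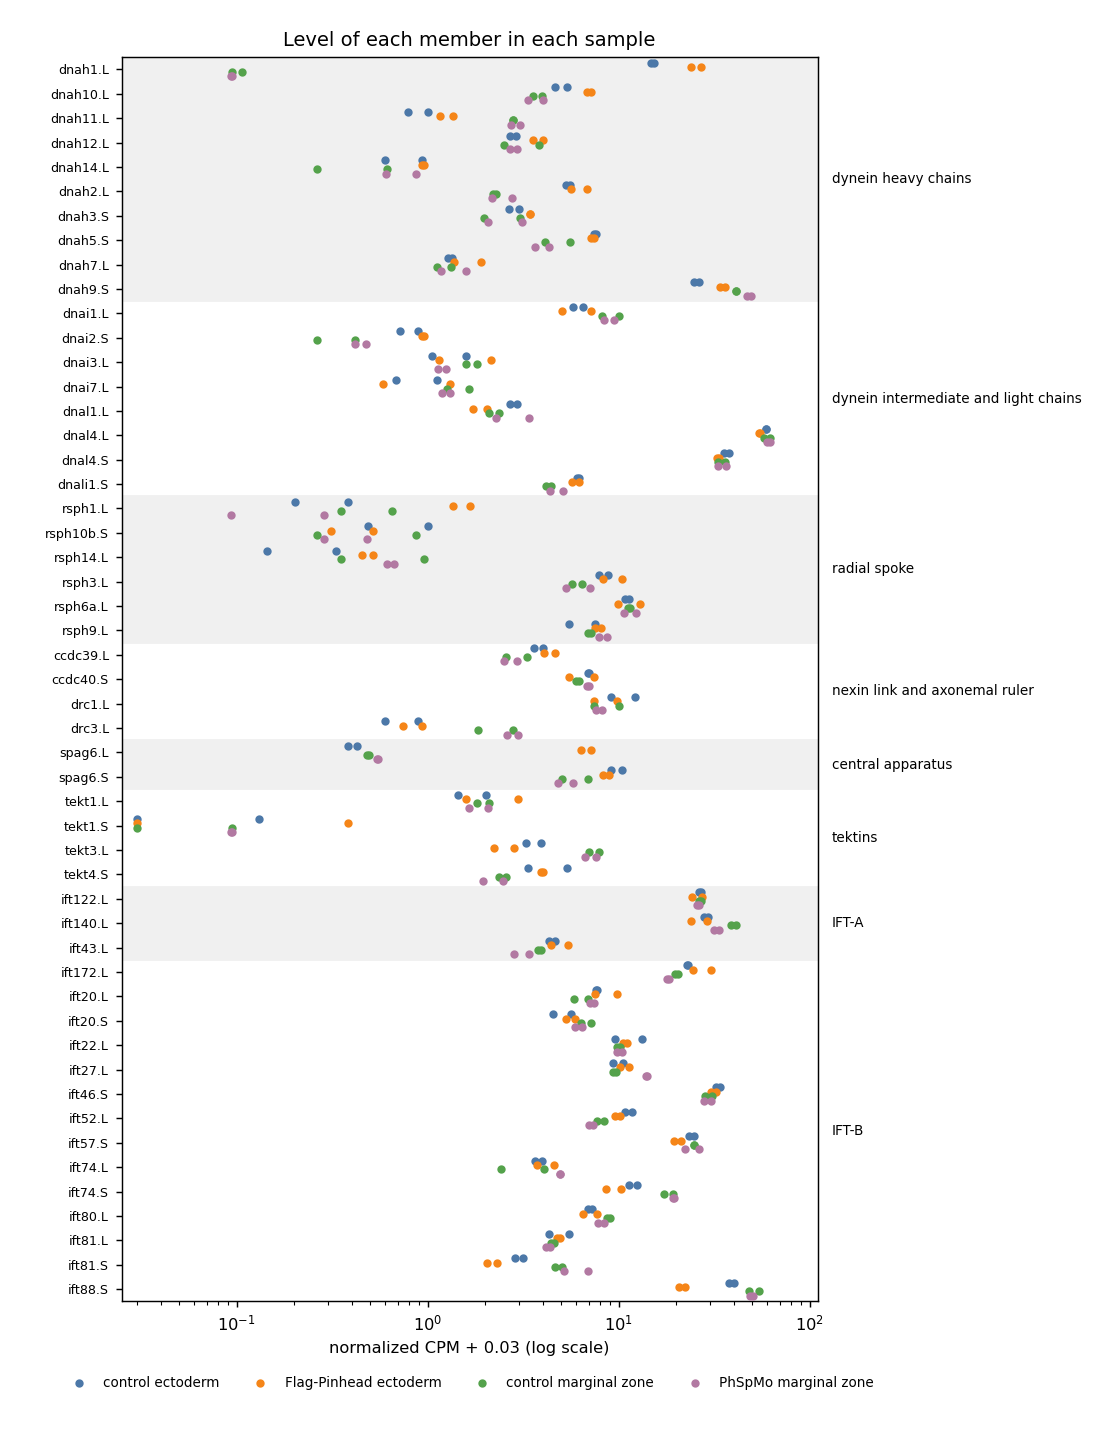
Normalized CPM (plus 0.03, log axis) of every gene of the set in each of the 8 samples, in bands by role. Most genes held their place across samples; dnah1.L dropped under 0.1 CPM in all 4 marginal zone samples and spag6.L rose above 6 CPM in both Flag-Pinhead samples.

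In ectoderm that expressed Flag-Pinhead, 4 of the 33 motile axoneme genes tested rose and none fell, and 1 of the 17 ift genes fell and none rose. The share called over all genes tested was 15.5% higher and 11.9% lower, 27.4% in all, so neither class held more calls than the background. The 4 that rose were spag6.L, rsph1.L, dnah1.L and dnah9.S, and the gene that fell was ift88.S. With DESeq2 the counts were also 4 higher and 0 lower for motile axoneme genes and 0 higher and 1 lower for ift genes. At an unadjusted p under 0.05, edgeR gave 5 higher and 1 lower among motile axoneme genes and 1 higher and 3 lower among ift genes. The median log2 fold change was 0.19 over the motile axoneme genes, -0.05 over the ift genes and 0.0003 over all genes. The motile axoneme median was 0.0568 without the first Flag-Pinhead sample and 0.0900 without the second control, and the ift median was 0.0308 without the first control. Both Flag-Pinhead samples lay above both controls in 13 motile axoneme genes and 1 ift gene, and below both in 6 of each class; over all genes these shares were 31.0% and 29.7%. The difference between the classes was not tested.

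The gene that moved furthest was spag6.L, whose product is a protein of the central apparatus. It stood at 0.354 and 0.399 CPM in control ectoderm (7 counts in each sample) and at 6.34 and 7.16 CPM with Flag-Pinhead (91 and 101 counts). The groups did not overlap, and the log2 fold change was 4.14 ± 0.36 (SE; edgeR adjusted p = 1.02e-09). The ratio of counts scaled to the TMM-corrected library sizes was 18.0, with a 95% interval of 10.5 to 33.5 that covers counting error only. Of the 22241 genes tested, 277 (1.25%) rose at least as far. Its homeolog spag6.S did not move with it, at 10.4 and 9.07 CPM in control ectoderm and 8.29 and 8.86 CPM with Flag-Pinhead (log2 fold change -0.19 ± 0.17, edgeR adjusted p = 0.468). Thus spag6.L made up 3.29% and 4.22% of the counts of the pair in the control ectoderm samples and 43.3% to 44.7% with Flag-Pinhead. In the marginal zone the share of spag6.L was 6.32% to 8.24% in controls and 8.16% to 9.76% with PhSpMo. How the counting assigned reads that match both of these related copies is not known.

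Among the radial spoke genes, rsph1.L, which encodes a protein of the spoke head, rose from a very low level. Control ectoderm had 0.354 and 0.171 CPM (7 and 3 counts) and Flag-Pinhead ectoderm 1.32 and 1.63 CPM (19 and 23 counts). The groups were separate, with a log2 fold change of 2.44 ± 0.60 (edgeR adjusted p = 0.00292) and a ratio of scaled counts of 5.51 (2.72 to 12.3). Without the second control ectoderm sample the log2 fold change was 2.04 with an adjusted p of 0.0526, above the threshold of 0.05. The other 5 spoke genes tested did not pass. They include rsph9.L, also of the spoke head, at 7.53 and 5.47 CPM against 7.52 and 8.08 CPM, and rsph3.L, a spoke stalk protein, at 7.88 and 8.72 CPM against 10.4 and 8.22 CPM.

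The heavy chains, the motors of the arms, held the other 2 calls. For dnah1.L, an inner arm heavy chain, control ectoderm gave 14.8 and 15.2 CPM and Flag-Pinhead ectoderm 23.9 and 26.9 CPM, a 1.69-fold rise (log2 fold change 0.76 ± 0.12, edgeR adjusted p = 3.38e-05). For dnah9.S, an outer arm heavy chain, the values were 26.2 and 24.7 CPM against 35.9 and 34.0 CPM (log2 fold change 0.46 ± 0.09, edgeR adjusted p = 0.000235). In both genes each Flag-Pinhead sample lay above each control. Of the 10 heavy chains 9 had a log2 fold change above 0, with a median of 0.38, and in 8 both Flag-Pinhead samples were above both controls. Over all genes 11129 of 22241 were above 0, and in 31.0% both Flag-Pinhead samples were above both controls. Whether the heavy chains depart from these shares was not tested. The largest of the heavy chain values that missed the threshold were 0.51 ± 0.40 for dnah11.L (outer arm) and 0.49 ± 0.19 for dnah10.L (inner arm; edgeR adjusted p = 0.396 and 0.0594). The lowest was dnah5.S, an outer arm heavy chain, at -0.05 ± 0.18. With the 8 libraries as separate units dnah10.L passed (edgeR adjusted p = 0.046). Heavy chain genes are long, and 6 of the 9 with a span in the RefSeq gene table were among the 1963 longest genes tested. The median log2 fold change of those 1963 genes was -0.0002. The span is that of the gene and not of its transcript, and whether length bears on the heavy chain values was not tested.

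The summed CPM of the heavy chains was 67.1 and 66.5 in control ectoderm and 92.2 and 91.1 with Flag-Pinhead. Without dnah1.L and dnah9.S, which were picked by their calls here, the sums were 26.1 and 26.5 against 32.5 and 30.2, without overlap. None of the other 8 heavy chains passed. The radial spoke genes summed to 27.2 and 26.8 CPM in control ectoderm and 33.1 and 28.6 CPM with Flag-Pinhead, and spag6.L and spag6.S together to 10.8 and 9.47 CPM against 14.6 and 16.0 CPM, also without overlap. Without spag6.L and rsph1.L, which were picked by their calls here, these 2 groups together gave 37.3 and 35.7 CPM against 40.1 and 35.8 CPM. None of the 8 intermediate and light chains passed, with 3 above 0 and a median log2 fold change of -0.02. Of the 4 genes of the nexin link and the axonemal ruler (drc1.L, drc3.L, ccdc39.L and ccdc40.S), 2 were above 0, with a median of 0.03, and of the 3 tektins tested 1 was, with a median of -0.14. None of these 7 passed.

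**Figure D2:**
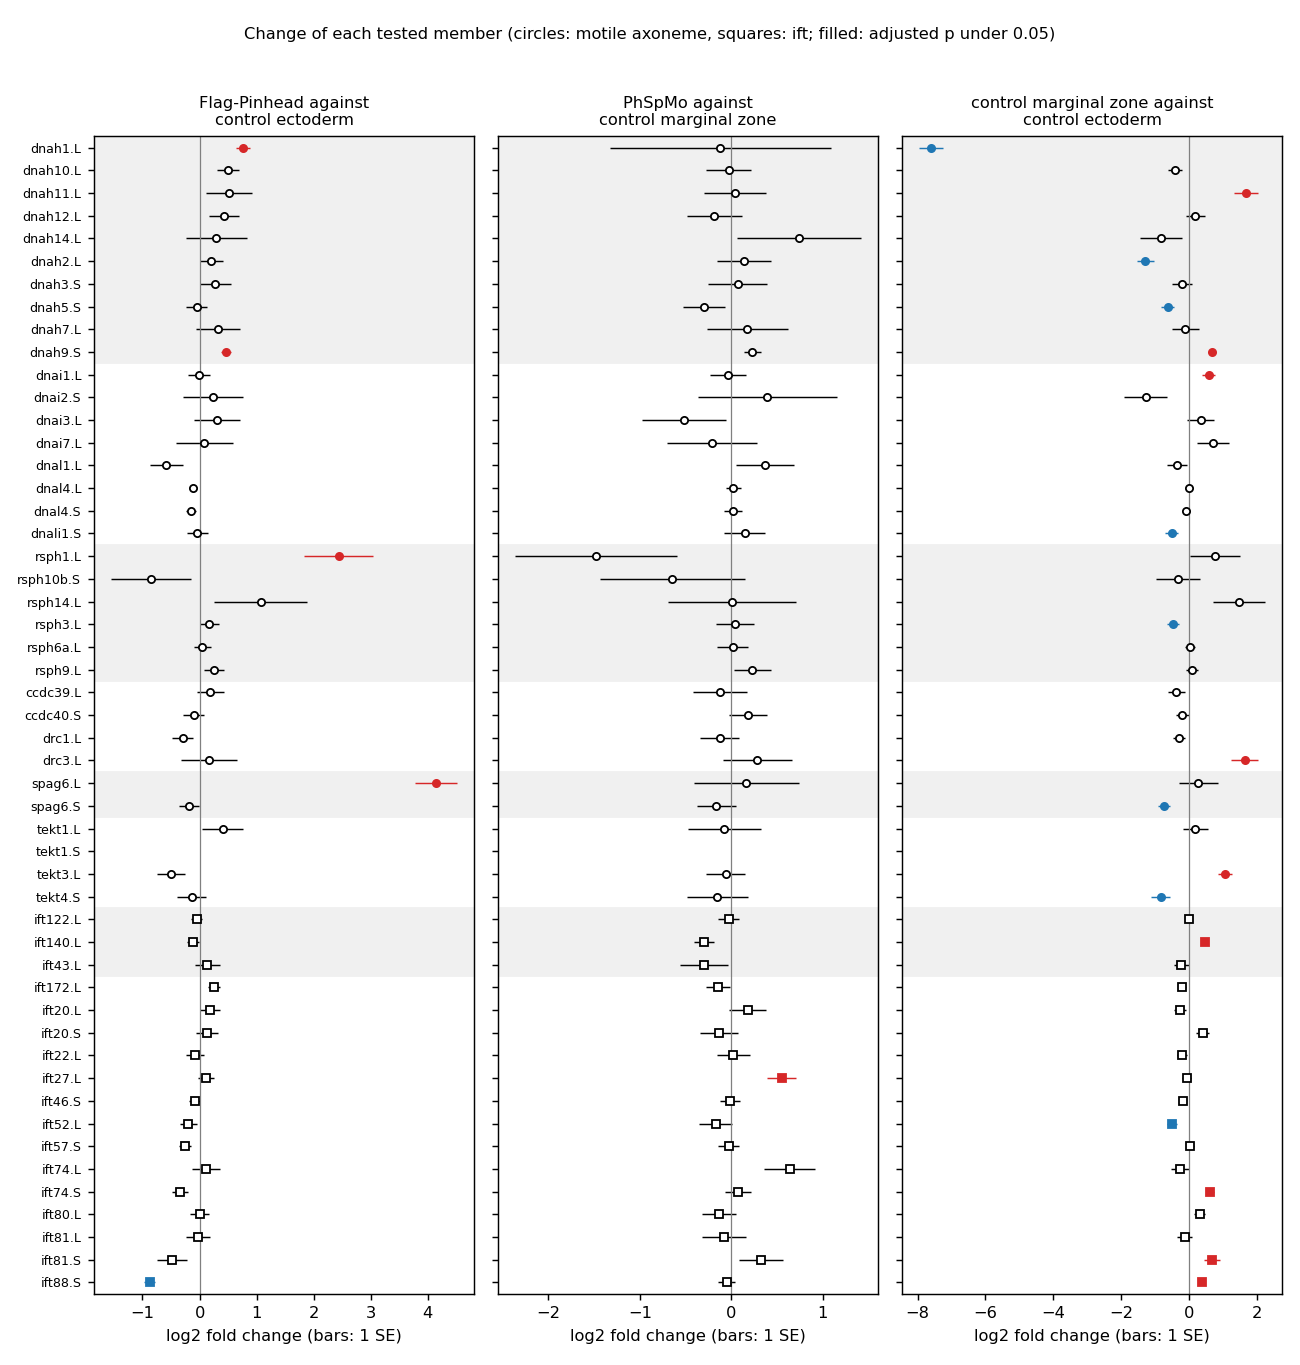
Log2 fold change ± 1 SE of each gene in the 3 comparisons, circles for motile axoneme and squares for ift genes, filled where the adjusted p was under 0.05. With Flag-Pinhead 9 of the 10 heavy chains lie above 0 and 4 motile axoneme genes are filled, with PhSpMo the only filled point is ift27.L, and between the control tissues filled points lie on both sides of 0.

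Among the ift genes, ift88.S, a core subunit of IFT-B, fell from 40.3 and 37.7 CPM in control ectoderm to 20.6 and 22.1 CPM with Flag-Pinhead. The groups did not overlap, and the level was 0.546-fold that of the control (log2 fold change -0.87 ± 0.09, edgeR adjusted p = 4.18e-08). Of all genes tested 599 (2.69%) fell at least as far. It made up 15.3% of the ift sum in control ectoderm and 9.26% with Flag-Pinhead. The remaining 16 ift genes had log2 fold changes between -0.48 and 0.26 with standard errors of at most 0.26, and 6 of the 17 were above 0. Nearest to the threshold were ift57.S at -0.25 and ift74.S at -0.34, both of IFT-B (edgeR adjusted p = 0.0774 and 0.0792). Next was ift172.L, also of IFT-B, which was higher at 0.26 (edgeR adjusted p = 0.0854). Without the second Flag-Pinhead sample the log2 fold change was -0.47 for ift74.S and 0.41 for ift172.L.

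Of the 3 IFT-A genes in the set none passed with Flag-Pinhead. For ift140.L the samples overlapped, at 29.5 and 27.8 CPM in control ectoderm against 23.9 and 29.0 CPM, and ift122.L was at 26.2 and 26.9 CPM against 24.2 and 27.2 CPM. The third, ift43.L, had a log2 fold change of 0.13.

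As the ift sum was 229.6 and 231 CPM with Flag-Pinhead and the motile sum 277 and 266 CPM, the ratio of motile to ift reads was 0.950 and 1.01 in control ectoderm and 1.21 and 1.15 with Flag-Pinhead. The sums without the 5 called genes are given as a description only. Those genes were picked by their calls in this comparison, so closer sums follow from the choice. Without spag6.L, rsph1.L, dnah1.L and dnah9.S the motile genes summed to 207 and 210 CPM in control ectoderm and to 209 and 196 CPM with Flag-Pinhead. Without ift88.S the ift genes summed to 221 and 210.2 CPM and to 209 and 209 CPM. With the called genes kept and dnal4.L and dnal4.S left out, the motile genes summed to 154 and 153 CPM in control ectoderm. With Flag-Pinhead that sum was 190 and 178 CPM, without overlap. In the marginal zone the ratio of motile to ift reads was 0.881 and 0.854 in controls and 0.900 and 0.937 with PhSpMo.

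**Figure D3:**
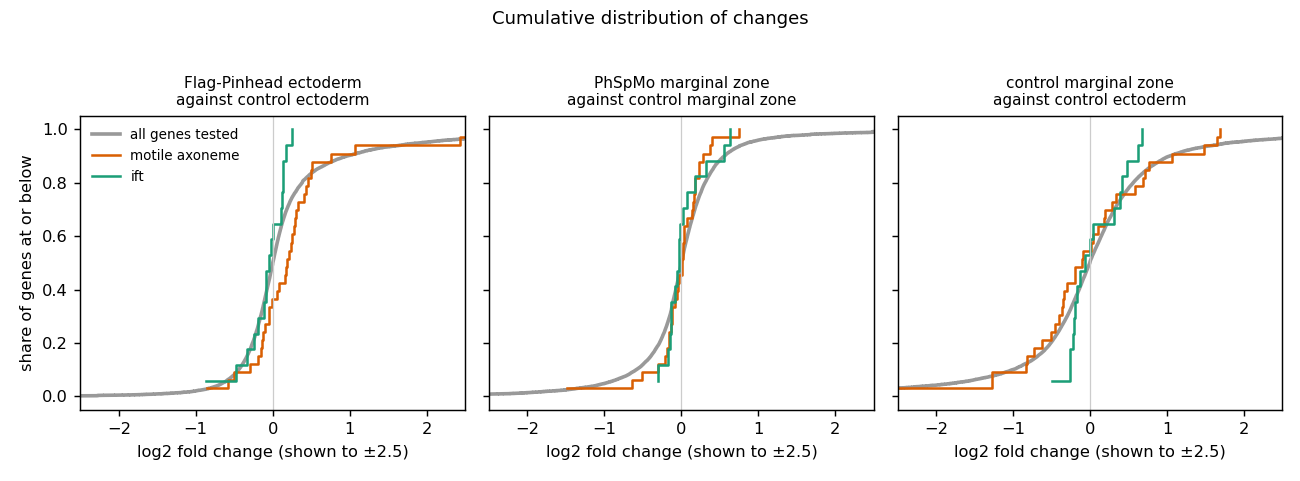
Cumulative share of genes by log2 fold change in the 3 comparisons, for motile axoneme genes, ift genes and all genes tested (axis shown from -2.5 to 2.5). With Flag-Pinhead the motile curve lies to the right of that of all genes around its median of 0.19, and with PhSpMo both medians lie within 0.03 of 0.

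The genes that control and accompany these parts were read from fixed lists beside the set. Of 28 regulators of motile cilia tested with Flag-Pinhead, 10 rose and 5 fell, with a median log2 fold change of -0.06. Over all genes tested 15.5% rose and 11.9% fell, and whether a list departs from these shares was not tested. The forkhead factor gene foxj1.S, a switch for motile cilia, rose from 6.26 and 6.27 CPM to 61.2 and 42.8 CPM (log2 fold change 3.05 ± 0.15, edgeR adjusted p = 5.15e-15). Its homeolog foxj1.L rose from 9.45 and 9.29 CPM to 15.5 and 15.7 CPM (0.74 ± 0.14, edgeR adjusted p = 0.000159). The related foxj1.2.L rose by 2.97 ± 0.42, from 0.303 and 0.570 CPM to 3.48 and 3.33 CPM (edgeR adjusted p = 3.6e-06). All 3 foxj1 genes were thus higher in both Flag-Pinhead samples. Against this, rfx2.S, an RFX factor that acts on ciliary genes, fell from 67.5 and 70.0 CPM to 35.6 and 36.6 CPM (-0.93 ± 0.07, edgeR adjusted p = 7.52e-11). The gene of the multiciliated cell program ccno.L, at 6.62 and 6.50 CPM against 4.32 and 7.09 CPM, did not pass (edgeR adjusted p = 0.464), and mcidas.L, whose product drives that program, was under 0.3 CPM in all 4 ectoderm samples and was not tested; both were named after their values were seen. The regulators list also holds foxa4.L and foxa4.S, forkhead genes of the organizer, which went from at most 0.171 CPM to between 3.07 and 17.3 CPM. Of 17 genes of the left-right organizer list, which shares the foxj1 genes, 6 rose and 4 fell, among them gdf3.S, a TGF-beta ligand, from 1.06 and 1.08 CPM to 50.2 and 36.8 CPM and dmrt2.L from 0.253 and 0.285 CPM to 3.97 and 2.69 CPM. Over the same samples 6 of 14 ionocyte and secretory cell genes rose and 1 fell; the part of such cells in any of these results was not tested.

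**Figure D4:**
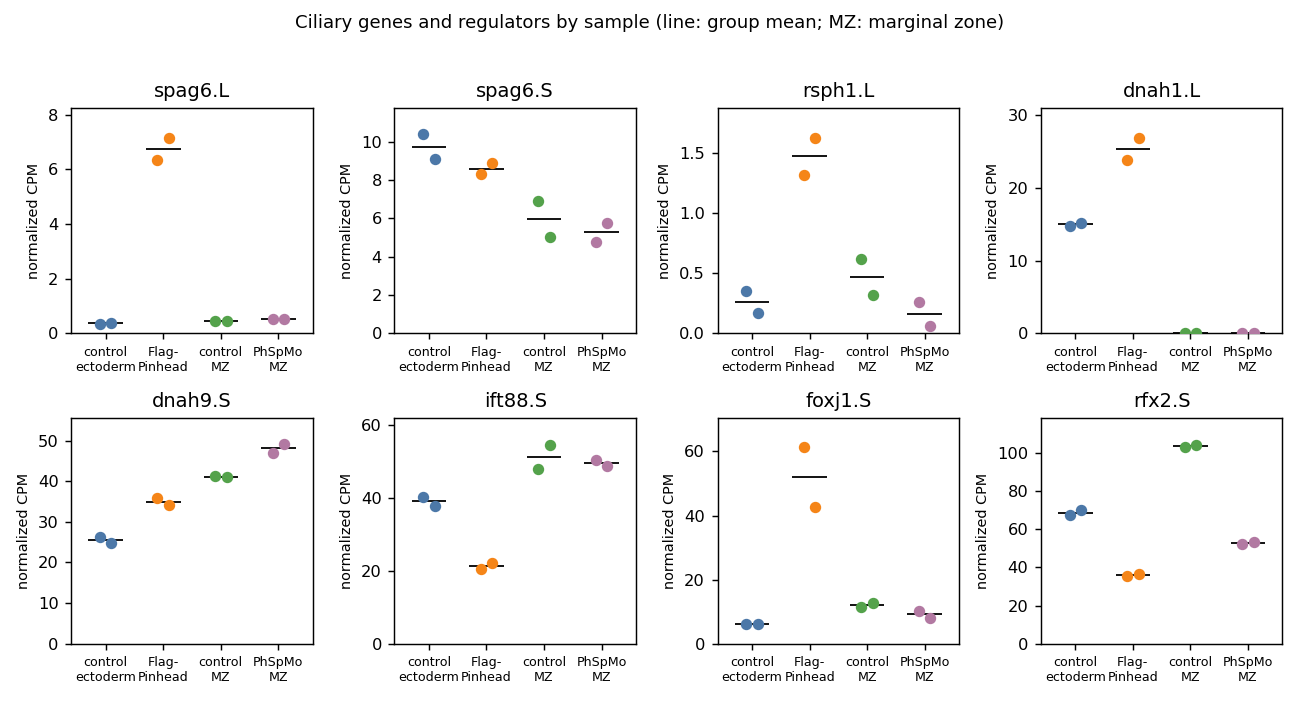
Normalized CPM of single samples for spag6.L, spag6.S, rsph1.L, dnah1.L, dnah9.S and ift88.S and for the regulators foxj1.S and rfx2.S, with a line at each group mean. The 2 Flag-Pinhead samples stand above both ectoderm controls for foxj1.S, spag6.L, rsph1.L, dnah1.L and dnah9.S and below them for rfx2.S and ift88.S.

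Other parts of the axoneme and of the transport machinery were read in the same way, beside 15.5% of all genes higher and 11.9% lower with Flag-Pinhead. The share that fell was 12.5% of the dynein assembly list and 13.9% of the BBSome and transition zone list, near that background. Of 43 central pair and other axoneme genes, 3 rose and 2 fell (median 0.03). Among those that rose was iqca1.L, with no count in either control sample and 32 and 36 counts with Flag-Pinhead. It was at least 29.7-fold higher against a floor of 3 counts over the control group. In the same list mns1.L, whose product lies inside the doublet, fell from 31.3 and 32.2 CPM to 17.6 and 18.7 CPM (-0.81 ± 0.10, edgeR adjusted p = 7.41e-07). Of 24 dynein assembly genes none rose and 3 fell, with 17 below 0 and a median of -0.18; those that fell were ruvbl2.L by 0.40 ± 0.09 on the log2 scale (edgeR adjusted p = 0.000927), dnaaf2.L by 0.25 ± 0.09 (0.0297) and ruvbl1.L by 0.18 ± 0.07 (0.0462). Of 29 transport motor and IFT partner genes none rose and 5 fell. Among these was cluap1.L, which also encodes a subunit of IFT-B, from 26.1 and 24.5 CPM to 18.4 and 18.3 CPM (edgeR adjusted p = 0.00201). Another was kifap3.L, a subunit of the heterotrimeric kinesin of IFT, from 11.8 and 12.03 CPM to 8.22 and 8.01 CPM (edgeR adjusted p = 0.00367). The median of the list was -0.14, with 23 of its 29 genes below 0 and 6 above. Over all genes tested 11041 of 22241 were below 0, with a median of 0.0003. Whether any of these lists departs from all genes was not tested. The BBSome, a cargo adaptor of IFT, and the transition zone at the base of the cilium had 4 genes higher and 5 lower of 36, with invs.L at 0.71 ± 0.14 and rpgr.S at -0.45 ± 0.09 (edgeR adjusted p = 0.000408 and 0.000425).

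With PhSpMo in the marginal zone none of the 33 motile axoneme genes passed in edgeR, DESeq2 called 0, and 1 was higher at an unadjusted p under 0.05. Of the 17 ift genes 1 rose and none fell in edgeR and DESeq2 called 0. Over all genes edgeR called 18.7%, with 8.22% higher and 10.5% lower. The medians were 0.01 for motile axoneme genes, -0.03 for ift genes and 0 for all genes. Standard errors of the motile axoneme genes had a median of 0.30, against 0.18 for ift genes. The PhSpMo samples lay above both controls without overlap in 5 motile axoneme and 5 ift genes and below both in 2 and 6, against 31.2% and 31.1% of all genes.

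The ift gene that rose was ift27.L, which encodes a small GTPase of IFT-B. It was at 9.36 and 9.62 CPM in control marginal zone and 13.9 and 13.8 CPM with PhSpMo (log2 fold change 0.55 ± 0.16, edgeR adjusted p = 0.0156). The groups did not overlap. The call was lost without the first or the second control marginal zone sample (adjusted p = 0.0888 and 0.0803) and with DESeq2 (0.174). For ift140.L, a core subunit of IFT-A, the values were 40.8 and 38.9 CPM against 33.3 and 31.4 CPM (-0.30 ± 0.11, edgeR adjusted p = 0.0583). That value passed in 8 of 17 other settings: without either of the Flag-Pinhead samples (0.015 and 0.0165), without the first PhSpMo sample (0.0441), with RLE size factors (0.0496), with 8 libraries (0.0107), also with PhSpMo columns summed by last digit (0.0266) or a replicate block (0.0148), and with only the 2 groups fitted (0.0117). Of the genes that moved with Flag-Pinhead, spag6.L was at 0.464 and 0.452 CPM against 0.517 and 0.510 CPM, ift88.S at 47.9 and 54.5 CPM against 50.2 and 48.7 CPM, and rsph1.L at 0.619 and 0.323 CPM against 0.258 and 0.0638 CPM, where the last value is 1 count. None of these passed. For dnah9.S the values were 41.2 and 41.0 CPM against 47.0 and 49.2 CPM (0.23 ± 0.09, edgeR adjusted p = 0.101); with the 8 libraries as separate units the adjusted p was 0.0348, with a replicate block besides 0.0447, and with only the 2 groups fitted 0.0318.

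In the same tissue 24 of 40 early mesoderm genes fell with PhSpMo, and so did 22 of 40 epidermis genes. Over all genes tested 8.22% rose and 10.5% fell, and whether a list departs from these shares was not tested. Among the 28 regulators of motile cilia 2 rose and 6 fell. The gene rfx2.S went from 103 and 104 CPM to 52.4 and 53.2 CPM (-0.97 ± 0.08, edgeR adjusted p = 1.05e-09), and foxn4.L, which encodes a forkhead factor of multiciliated cells in Xenopus, from 7.58 and 6.52 CPM to 2.39 and 1.85 CPM (-1.73 ± 0.29, edgeR adjusted p = 8.74e-05). For foxj1.S the values were 11.5 and 12.7 CPM against 10.3 and 8.04 CPM, which did not pass (edgeR adjusted p = 0.131). None of the 43 central pair and other axoneme genes passed, and 1 of 24 dynein assembly genes fell (ruvbl2.L, -0.40 ± 0.10). Of the 29 transport genes 2 fell and 1 rose. The light chain genes dynll1.S and dynll1.L, shared by axonemal and cytoplasmic dynein, were the 2 that fell, by 1.09 ± 0.12 and 0.52 ± 0.13 on the log2 scale (edgeR adjusted p = 1.66e-07 and 0.00417). The kinesin subunit gene kif3a.S rose from 11.1 and 12.2 CPM to 16.0 and 16.8 CPM (0.48 ± 0.15, edgeR adjusted p = 0.0226). Of 17 left-right organizer genes 4 rose and 2 fell; dand5.L, a Nodal antagonist of the organizer, was at 50.2 and 53.3 CPM against 86.5 and 85.7 CPM (0.73 ± 0.11, edgeR adjusted p = 1.05e-05).

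The control tissues themselves differed in 12 of 33 motile axoneme genes, of which 5 were higher in marginal zone, and in 5 of 17 ift genes, of which 4 were. The share called over all genes was 52.8%, with 26.5% above and 26.3% below ectoderm. The groups differ in tissue and in labelled stage, which cannot be told apart. Whether both tissues came from the same clutch or experiment is not stated, so such a difference cannot be told apart from tissue either. The ift median was above 0, at 0.0516 and 0.0154, without the first ectoderm or the second marginal zone sample. Samples of the tissues did not overlap in part of the set: 8 motile axoneme genes were higher in marginal zone and 12 lower, and 6 ift genes higher and 5 lower, against 38.4% higher and 38.7% lower over all genes. The medians were -0.11 for motile axoneme genes, -0.07 for ift genes and -0.0029 for all genes. Without the first marginal zone sample the motile axoneme median was 0.0075. This comparison and that of Flag-Pinhead share the control ectoderm samples, so values of a gene in both are given side by side and no overlap is counted.

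The inner arm gene dnah1.L was nearly absent from the marginal zone. It had 293 and 267 counts in the control ectoderm samples and 1 count in each of the 4 marginal zone samples, PhSpMo included. Ectoderm thus stood far above marginal zone with no overlap, at 14.8 and 15.2 CPM against 0.0773 and 0.0645 CPM. The ratio of scaled counts of ectoderm to marginal zone was 213, with a 95% interval of 58.7 to 1765 that covers counting error only. The log2 fold change was -7.60 ± 0.34 (edgeR adjusted p = 8.14e-16), with an SE that understates that width. Of the genes tested 42 (0.189%) were at least as much lower. No other heavy chain did this: of the other 9, the lowest log2 fold change that passed was that of dnah2.L, an inner arm heavy chain, at 5.25 and 5.53 CPM in ectoderm against 2.17 and 2.26 CPM (-1.28 ± 0.24, edgeR adjusted p = 6.93e-05). The third that was lower was dnah5.S, an outer arm motor, at 7.43 and 7.58 CPM against 4.10 and 5.55 CPM (-0.62 ± 0.19, edgeR adjusted p = 0.00757), which was lost without the first marginal zone sample (0.126) and with DESeq2 (0.072).

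Heavy chains went both ways between the tissues. For dnah11.L ectoderm had 0.758 and 0.969 CPM and marginal zone 2.78 in both samples (1.69 ± 0.35, edgeR adjusted p = 0.000263). For dnah9.S, at 26.2 and 24.7 CPM in ectoderm and 41.2 and 41.0 CPM in marginal zone, the log2 fold change was 0.69 ± 0.09 (edgeR adjusted p = 2.36e-07). Both are outer arm motors, like dnah5.S, which was lower. Outside the motors, drc3.L of the nexin link was higher in marginal zone, with 0.859 and 0.570 CPM against 2.78 and 1.81 CPM (1.65 ± 0.41, edgeR adjusted p = 0.00133). The tektin gene tekt3.L was at 3.23 and 3.88 CPM in ectoderm and 7.89 and 6.97 CPM in marginal zone (1.06 ± 0.20, edgeR adjusted p = 9.59e-05), while tekt4.S was lower there, at 5.30 and 3.31 CPM against 2.55 and 2.32 CPM (-0.83 ± 0.27, edgeR adjusted p = 0.0123). The latter was lost without the first ectoderm sample (0.304) or the second marginal zone sample (0.0965), and with DESeq2 (0.0914).

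The last 4 called motile axoneme genes changed by less than 1 on the log2 scale. Lower in marginal zone were spag6.S (-0.72 ± 0.18), the inner arm light intermediate chain gene dnali1.S (-0.51 ± 0.20) and rsph3.L (-0.46 ± 0.18), with edgeR adjusted p = 0.0013, 0.0309 and 0.0325. The outer arm intermediate chain gene dnai1.L was higher, at 5.71 and 6.50 CPM in ectoderm against 8.12 and 10.005 CPM (0.58 ± 0.18, edgeR adjusted p = 0.00963). These 4 calls were not firm. For dnali1.S and rsph3.L leaving out any 1 of the 4 control samples took the adjusted p past 0.05, to between 0.0618 and 0.182. For dnai1.L this took the first ectoderm sample (0.107) or the second marginal zone sample (0.171), and for spag6.S the second marginal zone sample (0.0656). DESeq2 did not call dnali1.S, rsph3.L or dnai1.L either (adjusted p = 0.184, 0.167 and 0.0771).

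Among ift genes ift88.S, which was lower with Flag-Pinhead, was higher in marginal zone than in ectoderm, at 47.9 and 54.5 CPM against 40.3 and 37.7 CPM (0.39 ± 0.08, edgeR adjusted p = 0.00036). The IFT-A gene ift140.L was higher as well, by 0.48 ± 0.10 (edgeR adjusted p = 0.000162). So were ift74.S and ift81.S, whose products form a tubulin-binding pair in IFT-B, by 0.62 ± 0.13 and 0.68 ± 0.23 (edgeR adjusted p = 0.000264 and 0.0152). Their homeologs ift74.L (-0.26) and ift81.L (-0.13) did not pass. Thus the .L copy gave 24.1% of ift74 counts in control ectoderm and 14.6% in control marginal zone, and 62.0% against 48.3% of ift81 counts. For ift20 the share was 60.0% against 48.7%, where neither homeolog passed, and for dnal4 61.8% against 63.6%. The IFT-B gene ift52.L was lower in marginal zone, at 10.8 and 11.7 CPM against 7.66 and 8.33 CPM (-0.49 ± 0.15, edgeR adjusted p = 0.00796). The call of ift81.S was lost without the first or second ectoderm sample or the first marginal zone sample (0.0527, 0.098 and 0.0896), and that of ift52.L without the second ectoderm or first marginal zone sample (0.0722 and 0.0686); both were also lost with DESeq2 (0.114 and 0.0784).

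Each of the related lists held genes higher and genes lower in marginal zone. Over all genes tested 26.5% were higher and 26.3% lower, and whether a list departs from these shares was not tested. Of 28 regulators of motile cilia 13 were higher in marginal zone and 5 lower, among them ccno.L at 6.62 and 6.50 CPM against 25.8 and 27.6 CPM (2.03 ± 0.15, edgeR adjusted p = 1.17e-11) and the tubulin gene tubb4b.L at 362 and 400 CPM against 192 and 183 CPM. The gene foxj1.S was at 11.5 and 12.7 CPM in the marginal zone, between its levels in control and Flag-Pinhead ectoderm. Of 43 central pair and other axoneme genes 9 were higher and 11 lower, with cfap46.L of the central apparatus at 40.5 and 36.7 CPM in ectoderm and 1.24 and 3.81 CPM in marginal zone (-3.88 ± 0.20, edgeR adjusted p = 9.95e-15). The marginal zone samples of cfap46.L lay far apart, which this SE, from a spread estimated over all groups, does not fully show. Of 24 dynein assembly genes 6 were higher and 2 lower, with dnaaf5.L at 8.59 and 8.27 CPM against 47.6 and 43.5 CPM (2.43 ± 0.11, edgeR adjusted p = 1.27e-15). Of 29 transport motor and partner genes 4 were higher and 11 lower. Among them ttc26.L and hspb11.L, which also encode IFT-B subunits, were at -1.08 ± 0.12 and -2.51 ± 0.39 (edgeR adjusted p = 4.48e-08 and 6.27e-06). Of 36 BBSome and transition zone genes 6 were higher and 9 lower, with cep290.L, a linker of the transition zone, at 21.8 and 18.3 CPM against 2.94 and 3.10 CPM (-2.73 ± 0.17, edgeR adjusted p = 3.31e-13).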

How the data were processed

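The deposited file gives raw counts for 35649 genes in 16 columns, 2 for each of 8 samples, with no normalization by the authors. CASAVA 1.8, HISAT2, SAMtools and HTSeq are named, per the submitters' processing notes. Genome build, strand and counting options: not given in the sources used here, so reads of antisense partners cannot be told apart. The columns of a sample were added; 2 mistyped column names were given to control marginal zone sample 1, which had none of its own. Of 24441 LOC identifiers 21106 were found in a RefSeq gene table, which named 24 of the genes described and also gave gene spans and neighbours.

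The PhSpMo samples differed by a mean chi-square of 1.43 over genes with at least 50 counts, within the 1.29 to 1.46 between the columns of each sample of the other groups. The control pairs differed by 2.05 and 2.27 and the Flag-Pinhead pair by 11.9 (medians 0.847, 0.901 and 1.33). The columns within the PhSpMo samples differed by 2.38 and 2.44, while sums over columns with the same end digit differed by 3.41, so they may be crossed. They were therefore summed to 1 unit, assumed to vary like the other groups; fits with 8 libraries were alternatives. Tests used edgeR 4.0.16 (R 4.3.3) with filterByExpr (minimum 10), TMM, 1 mean per group over 7 units (3 residual degrees of freedom) and two-sided quasi-likelihood tests, adjusted by Benjamini-Hochberg over 22241 genes at 0.05. The SE is the log2 fold change over the square root of F. It rests on the spread estimated over all groups, so it can be narrower than the scatter of the samples compared. DESeq2 1.42.0 and other settings were alternatives. On simulated data with few changed genes, the fit recovered 59.7% of 1.5-fold and 84.8% of 4-fold changes for Flag-Pinhead. For PhSpMo it recovered 56.7% and 72.7%, so a gene that was not called may still have changed. False calls were 5.7% and 3.6% of calls. The simulated counts took their spread from the fit, alike in every group. These shares therefore do not give the rate of false calls in the data, where the Flag-Pinhead pair differed more than the control pairs. TMM factors were 0.923 and 0.927 for Flag-Pinhead. Ratios of counts were scaled to the TMM-corrected library sizes and have exact 95% binomial intervals, and intervals and floors cover counting error only.

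The genes, their roles and the other lists were chosen with earlier results of these data known. Named by rule were up to 10 called genes of each class with the lowest p in each comparison and the gene of highest mean CPM; from each other list, up to 4 called genes with the lowest p, or 2 where none passed. Genes of the set were also named by role. Outside the rule and after their values were seen, foxj1.L, ccno.L and mcidas.L were named in ectoderm and foxj1.S in marginal zone.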

Additional observations from a re-analysis of the deposited data

How the results depend on the processing

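Under 17 alternatives no called gene changed sign, and the calls of spag6.L, dnah1.L, dnah9.S and ift88.S with Flag-Pinhead passed in every one. Of 9 counts of calls 7 moved by over 1.5 times under some setting. For Flag-Pinhead the ift count of 1 ran from 1 to 3 leaving out 1 replicate. All genes called were 6088, 3892 with DESeq2, and 4054 to 6107 leaving out 1 replicate; the lowest was without control ectoderm replicate 1. For PhSpMo the motile axoneme count of 0 was 1 with 8 libraries, with the replicate block and with only the 2 groups fitted. The ift count of 1 was 0 with DESeq2, 2 with DESeq2-like size factors (RLE), 8 libraries, columns summed by digit, the replicate block or only the 2 groups, and 0 to 2 leaving out 1 replicate. All genes called were 4153, 2377 with DESeq2, and 2471 to 5257 leaving out 1 replicate. Between the tissues the motile axoneme count of 12 was 7 with DESeq2, and the ift count of 5 was 3 with DESeq2 and 3 to 5 leaving out 1 replicate.

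With Flag-Pinhead the motile axoneme median of 0.1855 ran from 0.0568 to 0.2472 leaving out 1 replicate and the ift median of -0.0481 from -0.121 to 0.0308, a change of sign; so did the tissue ift median of -0.071, from -0.1549 to 0.0516. The PhSpMo motile axoneme median of 0.0125 was 0.0039 with RLE, 0.0442 with no filter, 0.0043 with DESeq2, 0.0044 with 8 libraries, 0.0041 by digit, 0.0179 with only the 2 groups and -0.0265 to 0.0434 leaving out 1 replicate. The PhSpMo ift median of -0.0299 was -0.0385, -0.0018, -0.0386, -0.0404 and -0.0412 under the first 5 of these, -0.0404 with the replicate block and -0.0562 to -0.0154 leaving out 1 replicate. The tissue motile axoneme median of -0.1064 was -0.1937 with only the 2 groups and -0.1075 to 0.0075 leaving out 1 replicate. The causes were not tested. Deviations of same-numbered samples from their group mean correlated between groups at -0.0435 to 0.017, which gave no sign of a pairing. Values with PhSpMo cannot show a pairing, as its columns may be crossed. Few counts limit genes under 1 CPM, and a lone sample left in a group is assumed to vary like the others.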

Other observations

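The near absence of dnah1.L from the marginal zone was compared with its neighbours in the order of the RefSeq gene table, a comparison chosen after seeing the data. Summed over the samples of control ectoderm, Flag-Pinhead ectoderm, control marginal zone and PhSpMo marginal zone, dnah1.L had 560, 722, 2 and 2 counts. The gene 2 places before it, acy1.2.L, had 65, 44, 2 and 0 counts in the same order, also nearly absent from the marginal zone. The genes next to dnah1.L on each side were not: bap1.L, a deubiquitinase gene, had 3131, 2152, 3349 and 3259 counts, and glyctk.L had 15, 17, 9 and 15. Farther along, wfdc2.L, 4 places after, had 567, 239, 62 and 22 counts, lower in the marginal zone, and parp3.L, 5 places before, had 241, 2157, 128 and 967 counts, higher in the treated than in the control samples of both tissues. These counts are not normalized for depth.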
